A study of Oryctolagus cuniculus with 36 samples.

Results

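The p53 target genes described here are CDKN1A, MDM2, TIGAR, EDA2R, CCNG1, PHLDA3, ZMAT3, BTG2, BAX and DDB2. They were chosen by symbol with earlier results of these data known, and all 10 were found among the 23394 genes of the deposited table. RNA was sequenced from rabbit liver in a study of CRISPR/Cas9 repair of hereditary tyrosinemia type I in newborn rabbits, a disease in which the tyrosine-degrading enzyme FAH is missing. The titles give 3 groups, FA, FK and WT (wild type), each with 3 numbered sets of 4 libraries. The labels spell out neither FA nor FK, give no allele, agent, strain or age for a sample, carry the same disease description for every group, WT included, and speak of the livers of treated rabbits, digested with trypsin before RNA extraction. The 4 libraries of a set are not said to be separate animals, so their counts were summed to 1 replicate, and n = 3 per group throughout. No label says that the sets are separate animals either, and the p-values then reflect no more than how far these sets differ, possibly for technical reasons.

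The transcription factor p53 is held low in unstressed cells by the ubiquitin ligase MDM2 and is stabilised by DNA damage and other stresses. It then switches on genes that stop the cell cycle, repair DNA, change metabolism or start cell death, and it also switches on MDM2, which closes a feedback loop. In liver this response is known from injury and regeneration, and in mice that lack Fah, Cdkn1a is known to be induced in hepatocytes.

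Each replicate held 53.2 to 78.6 M counts (M for mega), from libraries of 11.7 to 22.5 M. FAH stood at 25.7, 24.7 and 19.6 CPM in FA, at 16.4, 11.8 and 14.6 CPM in FK and at 237, 271 and 218 CPM in WT, so that both labelled groups lay far below wild type. CPM is counts per M counts after TMM scaling, and values are listed in the order of replicates 1, 2 and 3. Of the 6 hepatocyte markers, ALB (85068 CPM or more), FGB (8403 CPM or more), CPS1 (3578 CPM or more), TTR (838 CPM or more) and HPD (592 CPM or more) were abundant in every set, though not at even levels. HPD, an enzyme of tyrosine breakdown, was at 1054 to 1534 CPM in FA, at 592 to 940.3 CPM in FK and at 2167 to 2503 CPM in WT, and TTR was lowest in FK replicates 1 and 2. APOA1 was at 62.1 to 115 CPM in FA, at 2716, 2564 and 74.8 CPM in FK and at 28.0 to 49.2 CPM in WT. FK replicates 1 and 2 stood apart from the other 7 sets, with a Pearson r of log2(CPM + 1) across genes of 0.983 with each other but 0.931 and 0.912 with FK replicate 3, which correlated at 0.984 to 0.988 with the FA sets. In those 2 sets all 5 dividing-cell markers, all 8 erythroid markers and all 5 neutrophil markers lay above every other set. The summed dividing-cell markers were at 8.65 to 11.4 CPM in FA, at 238, 492 and 10.7 CPM in FK and at 8.32 to 12.8 CPM in WT. Erythroid markers summed to 6.12 to 21.2 CPM in FA, to 620, 1666 and 13.5 CPM in FK and to 15.6 to 77.0 CPM in WT, and neutrophil markers to 12.8 to 28.8 CPM in FA, to 1052, 1538 and 17.0 CPM in FK and to 10.9 to 19.0 CPM in WT. GATA1 and MPO, which mark erythroid and neutrophil precursors, were at or near 0 in FA (at most 0.168 CPM). They were also low in WT (at most 0.259 CPM) and FK replicate 3 (0.0169 CPM). Other markers of these lists were higher in FA, such as ALAS2 at 5.19 to 19.4 CPM and S100A9 at 6.09 to 13.1 CPM. Markers of resident cells also differed between groups. Kupffer cell and macrophage markers summed to 169 to 208 CPM in FA, 265 to 418 CPM in FK and 266 to 360.02 CPM in WT. Of these 5 markers, 3 (CD163, MARCO and VSIG4) lay above every other set in FK replicates 1 and 2, while CD5L and CD68 did not. CD163 was at 31.0, 27.9 and 1.30 CPM in FK, at 1.25 CPM or less in FA and at 0.322 CPM or less in WT. The sums of endothelial markers were 68.0 to 94.1 CPM in FA, 97.1 to 129 CPM in FK and 124 to 156 CPM in WT, and those of stellate cells and fibroblasts 93.5 to 153 CPM in FA, 133 to 194 CPM in FK and 169 to 226 CPM in WT. T cell markers were at 1.73 to 4.48 CPM in FA, 0.352 to 1.39 CPM in FK and 4.02 to 5.80 CPM in WT, and B cell markers at 1.71 to 3.20 CPM in FA, 1.03 to 2.29 CPM in FK and 3.77 to 5.48 CPM in WT. Bile duct markers summed to 3.26 to 9.57 CPM in FA, 3.01 to 31.1 CPM in FK and 6.98 to 8.87 CPM in WT. The highest FK sum was mostly EPCAM (29.2 CPM in FK replicate 2). The other markers, KRT7 and SOX9, were lower in every FA and FK set than in any WT set. KRT7 was at most 1.21 CPM there and at least 1.25 CPM in WT, and SOX9 at most 1.84 and at least 2.90 CPM. Of the 3 markers, 1 was called lower in FK against WT. Endothelial, stellate and B cell sums were thus lower in every FA set than in any WT set, as were Kupffer cell sums in FA and T and B cell sums in FK. The part of any of these cells in the results was not tested, and in bulk tissue fewer cells of a type and less RNA per cell cannot be told apart.

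CDKN1A, TIGAR, EDA2R and ZMAT3 were higher in all 6 FA and FK sets than in any WT set. The remaining members did not show this pattern. BTG2 stood above the WT range in FK replicates 1 and 2 alone, and in MDM2, CCNG1, PHLDA3, BAX and DDB2 at least 1 FA or FK set overlapped WT. In the fit over all 14939 genes that passed the filter on low counts, which all 10 members passed, a gene was called when edgeR's quasi-likelihood test gave a Benjamini-Hochberg adjusted p under 0.05. Only calls are described as rises or falls.

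**Figure D1:**
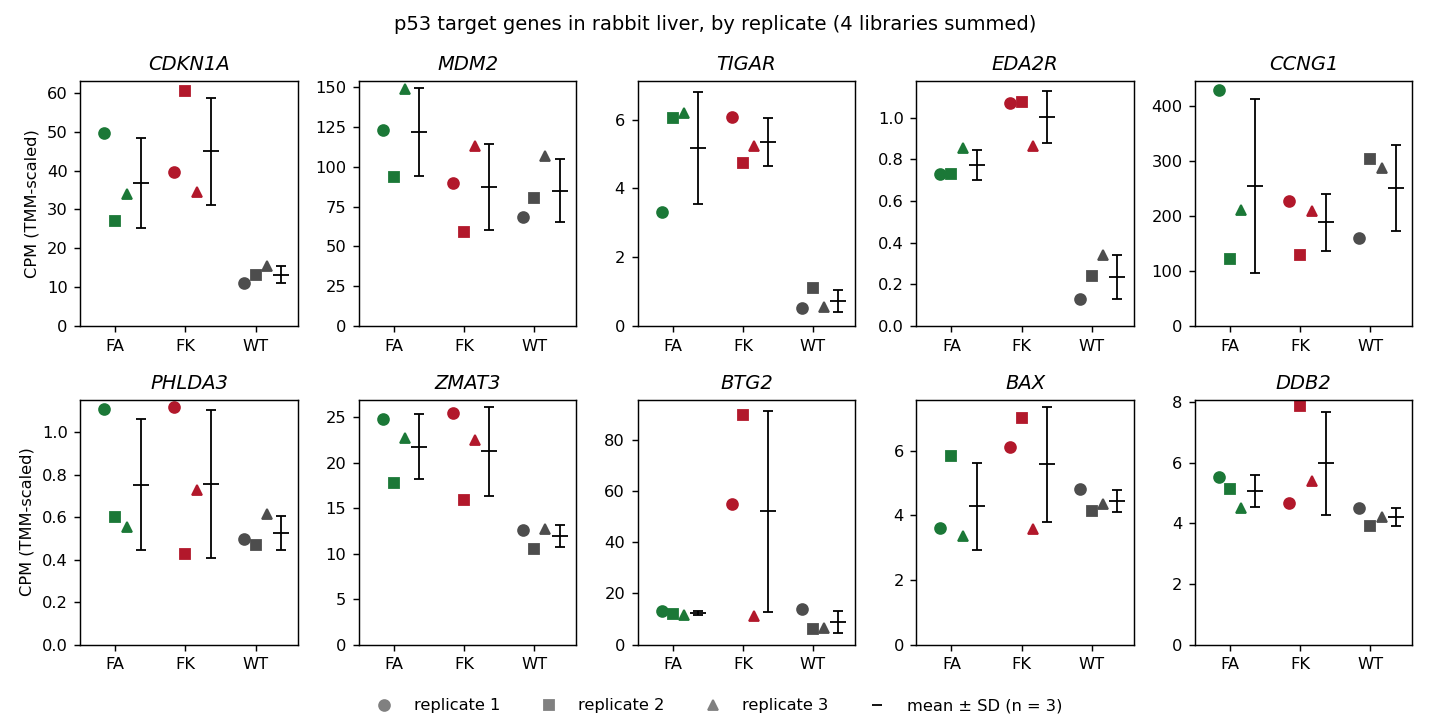
Levels of the 10 p53 target genes in TMM-scaled CPM (vertical axes from 0) in the FA, FK and WT replicates, with symbols for replicates 1 to 3 and the mean ± SD (n = 3) beside each group. CDKN1A, TIGAR, EDA2R and ZMAT3 lie above all WT replicates in every FA and FK replicate, and BTG2 is high in FK replicates 1 and 2 alone.

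TIGAR, a fructose bisphosphatase-like enzyme that slows glycolysis and limits oxidative stress, differed most from wild type among the members. It stood at 3.31, 6.04 and 6.19 CPM in FA, at 6.09, 4.73 and 5.24 CPM in FK and at 0.527, 1.11 and 0.551 CPM in WT. The lowest FA or FK set was thus about 3 times the highest WT set, and FA and FK overlapped. TIGAR rose by 2.87 log2 units in FK against WT (SE 0.40, 95% interval 1.97 to 3.77, adjusted p = 0.0166) and by 2.82 in FA against WT (SE 0.40, interval 1.93 to 3.72, adjusted p = 0.0454). The values rest on 33 to 381 counts per set. The FK call was lost without FK replicate 1 (adjusted p = 0.0671), WT replicate 1 (0.0962) or WT replicate 3 (0.0787). The FA call was lost without any of 8 replicates (0.0612 to 0.209) and held without FK replicate 3 (0.0116). The change itself stayed between 2.64 and 3.29 in both comparisons when a replicate was left out.

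CDKN1A encodes p21, the inhibitor of cyclin-dependent kinases that carries out much of the p53 arrest. Its level was 49.7, 26.9 and 34.1 CPM in FA, 39.7, 60.6 and 34.5 CPM in FK and 11.005, 13.2 and 15.4 CPM in WT. Every FA and FK set lay above every WT set, and FA and FK overlapped. In FK it rose 3.40-fold against WT (log2 change 1.77, SE 0.30, 95% interval 1.09 to 2.44, adjusted p = 0.0304), and the fold was 2.79 in FA against WT, which was not called (log2 change 1.48, interval 0.81 to 2.15, adjusted p = 0.136). FK replicate 2, which held the most dividing-cell and blood-cell marker RNA, had the highest CDKN1A level. FK replicate 3, without raised dividing-cell or blood-cell markers, was at 34.5 CPM, above every WT set. The part of those cells in the CDKN1A level was not tested. Without FA replicate 3 or any single FK replicate 1 or 2 or WT replicate the FK call was lost (adjusted p = 0.0599 to 0.138), at log2 changes of 1.49 to 1.86. In FA, CDKN1A passed when FK replicate 3 was left out (adjusted p = 0.0358), at the same log2 change of 1.48.

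EDA2R, a receptor of the tumour necrosis factor receptor family that binds ectodysplasin A2, was weakly expressed. It was at 0.730, 0.729 and 0.853 CPM in FA, at 1.07, 1.08 and 0.862 CPM in FK and at 0.128, 0.242 and 0.340 CPM in WT. The 3 groups did not overlap, with FK highest, although the highest FA and lowest FK set nearly touched. EDA2R rose in FK against WT (log2 change 2.08, SE 0.43, 95% interval 1.11 to 3.04, adjusted p = 0.0408). The change of 1.70 in FA against WT (interval 0.74 to 2.65) was not called (adjusted p = 0.229). It was counted by only 8 to 71 counts per set, and the FK call was lost without any replicate other than FK replicate 3 (adjusted p = 0.0654 to 0.157, log2 changes 1.77 to 2.40). It passed without FK replicate 3 (0.00603).

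ZMAT3, a zinc finger protein that binds RNA and acts in growth suppression by p53, showed a smaller difference that was alike in both groups. Its level was 24.8, 17.8 and 22.7 CPM in FA, 25.4, 15.9 and 22.5 CPM in FK and 12.6, 10.5 and 12.7 CPM in WT. No FA or FK set reached down to the WT sets. The log2 change was 0.83 in FK against WT (SE 0.22, 95% interval 0.33 to 1.33, adjusted p = 0.0606) and 0.87 in FA against WT (SE 0.22, interval 0.37 to 1.37, adjusted p = 0.239), and neither was called. Without FK replicate 3 the FK difference passed (adjusted p = 0.0315), at a log2 change of 0.77.

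**Figure D2:**
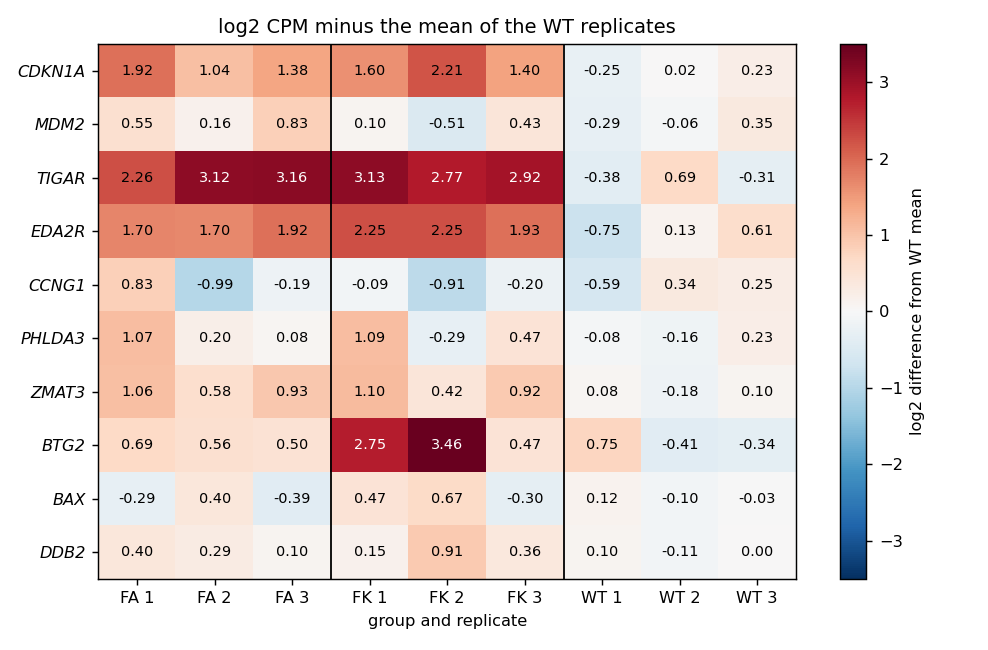
Difference of each replicate's log2 CPM from the mean of the WT replicates, for the 10 p53 target genes (rows) in 9 replicates (columns), printed in each cell. The TIGAR, EDA2R and CDKN1A rows are above 1 in all FA and FK replicates, while BTG2 reaches 2.75 and 3.46 in FK replicates 1 and 2 and 0.47 in FK replicate 3.

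BTG2, an antiproliferative protein that recruits the CCR4-NOT deadenylase and is also an early response gene, followed FK replicates 1 and 2. It stood at 13.2, 12.04 and 11.6 CPM in FA, at 55.0, 90.1 and 11.3 CPM in FK and at 13.8, 6.14 and 6.43 CPM in WT. FK replicate 3 and all FA sets lay inside the WT range, so that FK and WT overlapped. The log2 change was 2.57 in FK against WT (SE 0.65, 95% interval 1.10 to 4.05, adjusted p = 0.055) and 0.48 in FA against WT (interval -0.92 to 1.88, adjusted p = 0.851), neither of them called. Without FK replicate 3 the FK difference was called, at 3.03 (adjusted p = 0.000386). With FK replicates 1 and 2 both left out, a setting chosen after the data were seen, it was 0.33 (adjusted p = 0.741). The 2 high sets are those with the raised dividing-cell, erythroid and neutrophil markers, and the part of those cells in the BTG2 level was not tested.

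MDM2 and CCNG1 act on p53 itself: MDM2 marks it for destruction, and cyclin G1 acts with the phosphatase PP2A on MDM2. MDM2 was at 123, 93.7 and 149 CPM in FA, at 89.8, 58.8 and 113 CPM in FK and at 68.3, 80.4 and 107 CPM in WT. The groups overlapped, with FK replicate 2 the lowest of all sets. Its log2 change was 0.04 in FK against WT (95% interval -0.64 to 0.71) and 0.52 in FA against WT (-0.16 to 1.19), with adjusted p of 0.956 and 0.603. The FK value was -0.22 without FK replicate 3, and -0.11 and -0.02 without WT replicates 1 and 2. CCNG1 varied widely within groups, at 428, 121 and 211 CPM in FA, 227, 128 and 209 CPM in FK and 160.4, 304 and 286 CPM in WT. High and low sets occurred in both FA and WT. Its log2 change was -0.41 in FK against WT (-1.48 to 0.65, adjusted p = 0.613) and 0.02 in FA against WT (-1.04 to 1.08, adjusted p = 0.994). Without FA replicate 1 the FA value was -0.59, and without WT replicate 1 it was -0.22.

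The members of the cell death and repair branches showed small differences, none of them called. BAX, which forms pores in the outer mitochondrial membrane, was at 3.62, 5.83 and 3.36 CPM in FA, at 6.12, 7.02 and 3.58 CPM in FK and at 4.81, 4.14 and 4.34 CPM in WT. The higher BAX levels were thus those of FA replicate 2 and FK replicates 1 and 2, while FA replicates 1 and 3 and FK replicate 3 lay below every WT set. Its log2 change was 0.33 in FK (95% interval -0.39 to 1.05) and -0.05 in FA (-0.77 to 0.67) against WT, with adjusted p of 0.537 and 0.977. RefSeq (assembly mOryCun1.1) places BAX over part of the ferritin gene FTL and a long noncoding RNA. Whether counting kept strands apart is not stated, so reads of BAX and its neighbours may be mixed and its level is uncertain. MDM2 had no entry under its symbol in that annotation, so its overlaps could not be checked. The other members overlapped no annotated gene.

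PHLDA3, which competes with the kinase AKT for membrane lipids, was at 1.11, 0.599 and 0.552 CPM in FA, at 1.12, 0.425 and 0.726 CPM in FK and at 0.495, 0.467 and 0.616 CPM in WT. Replicate 1 was high in both FA and FK, and the groups overlapped. The log2 change was 0.52 in FK against WT (95% interval -0.54 to 1.59, adjusted p = 0.506) and 0.52 in FA against WT (-0.54 to 1.58, adjusted p = 0.769), from 28 to 79 counts per set. DDB2, which recognises ultraviolet damage for nucleotide excision repair, was at 5.54, 5.14 and 4.50 CPM in FA, at 4.67, 7.89 and 5.39 CPM in FK and at 4.52, 3.90 and 4.21 CPM in WT. All FK sets exceeded the WT sets, by little in replicate 1, and the lowest FA set fell just inside the WT range. The change was 0.51 log2 units in FK against WT (interval -0.05 to 1.07, adjusted p = 0.223), or 0.26 without FK replicate 2, and 0.27 in FA against WT (interval -0.29 to 0.82, adjusted p = 0.782).

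Set against all genes, 3 of the 10 members rose in FK against WT (CDKN1A, TIGAR and EDA2R) and none fell, where 3.04% of all tested genes were called higher and 1.73% lower. In 5 of 10 the FK sets all lay above the WT sets and in none below, against 13.9% and 13.4% of all genes. The median log2 change was 0.68 over the members and 0.05 over all genes. The members were chosen with earlier results of these data known. Their shares beside those of all genes, here and in the comparisons below, are thus descriptions and not a test of the members. Leaving out FK replicate 3 gave 5 calls, CDKN1A, TIGAR, EDA2R, ZMAT3 and BTG2, in a fit where 34.9% of all genes were called. There were 0 to 2 calls when any other replicate was left out. Without FK replicates 1 and 2 together there were 0, with TIGAR at 2.81 (adjusted p = 0.0633), CDKN1A at 1.36 (0.130) and EDA2R at 1.83 (0.195). FK replicate medians over the members were 1.09, 0.79 and 0.47 above the WT mean.

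In FA against WT, TIGAR alone of the 10 rose and none fell, where 0.0937% of all genes were called higher and 0.0736% lower. FA sets all exceeded WT sets in 4 of 10 members (CDKN1A, TIGAR, EDA2R and ZMAT3) and lay below them in none, against 12.5% and 12.4% of all genes. The median log2 change was 0.52 over the members and 0.00 over all genes, and the FA replicate medians were 0.94, 0.48 and 0.67 above the WT mean. Of the members, 4 had an unadjusted p under 0.05. Leaving out FK replicate 3 gave 2 calls, CDKN1A and TIGAR, with 1.6% of all genes called, and leaving out any other replicate gave none. The FA and FK comparisons share the WT sets, so their likeness is not independent.

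With FA and FK averaged in 1 contrast against WT, TIGAR rose by 2.85 log2 units (SE 0.37, adjusted p = 0.0124) and CDKN1A by 1.63 (SE 0.27, adjusted p = 0.0361), 2 of 10 members where 0.469% of all genes were called higher. None fell, where 0.683% of all genes were called lower. EDA2R (1.89, adjusted p = 0.0573) and ZMAT3 (0.85, adjusted p = 0.0835) were not called, but with CDKN1A and TIGAR they make up the 4 of 10 members whose 6 FA and FK sets all exceeded the 3 WT sets. Of all genes 5.27% did so, and 5.05% lay below WT in all 6 sets, which no member did. TIGAR lost its call without WT replicate 1 (adjusted p = 0.0915) or WT replicate 3 (0.0803). CDKN1A lost it without FA replicates 1 or 3, FK replicate 1 or any WT replicate (0.0702 to 0.181). Without FK replicate 3 there were 5 calls, where 18% of all genes were called in either direction. There were 0 calls without WT replicate 1 or 3, where 0.207% and 0.291% of all genes were called. Without FK replicates 1 and 2 together CDKN1A, TIGAR and ZMAT3 were called.

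**Figure D3:**
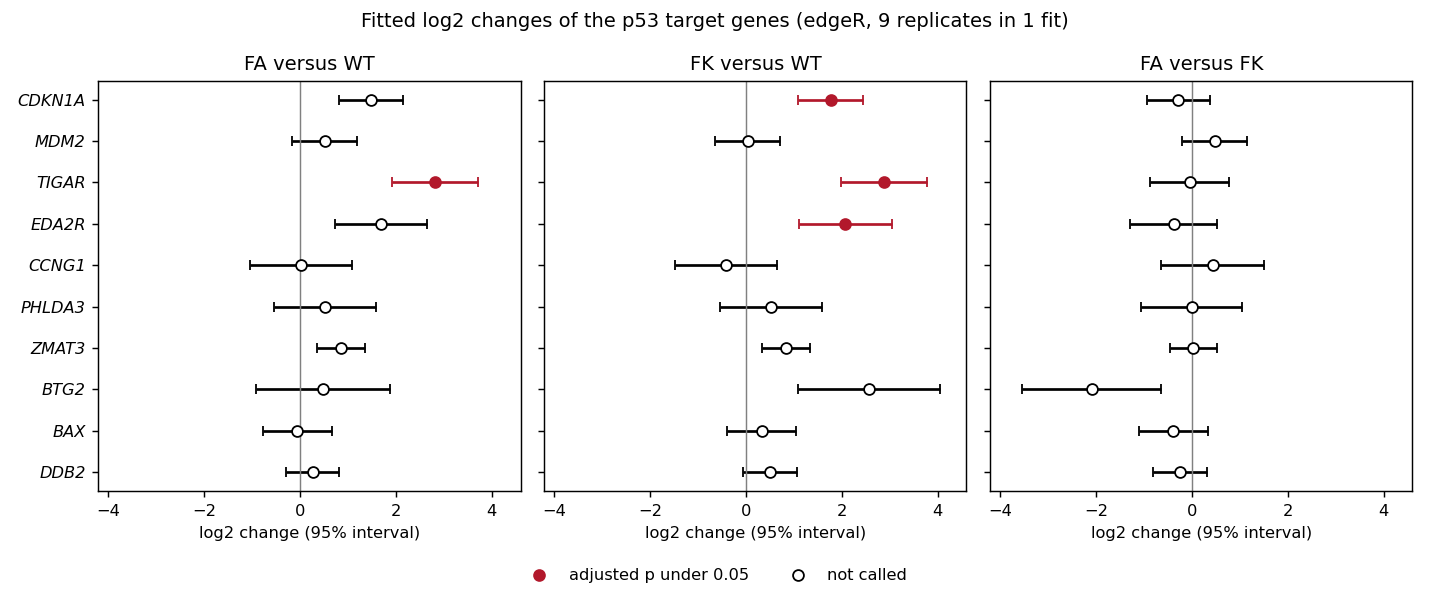
Fitted log2 changes with 95% intervals of the 10 p53 target genes for FA versus WT, FK versus WT and FA versus FK. Filled red points mark an adjusted p under 0.05: TIGAR in FA, and CDKN1A, TIGAR and EDA2R in FK. No point is filled for FA versus FK.

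Between FA and FK no member was called higher or lower, as for all genes (0% in each direction by edgeR, with 3275 genes, 21.9%, at an unadjusted p under 0.05). DESeq2 called 1778 genes, and edgeR 5324 without FK replicate 3, 34.5% of those tested. Among the members, BTG2 alone had an unadjusted p under 0.05, with a log2 change of -2.09 in FA against FK (95% interval -3.54 to -0.64, adjusted p = 0.128), and DESeq2 called BTG2 alone (adjusted p = 0.0153). It was also called without FK replicate 3, at -2.55 (adjusted p = 0.000864). No member lay higher in all FA than in all FK sets, against 8.24% of all genes, and 1 of 10, EDA2R, lay lower without overlap, against 8.99%. For TIGAR the difference was -0.05 (interval -0.87 to 0.78), for CDKN1A -0.28 (-0.94 to 0.37), for EDA2R -0.38 (-1.29 to 0.53) and for ZMAT3 0.03 (-0.46 to 0.53), so that equal levels were not shown. MDM2 differed by 0.48 (-0.20 to 1.16).

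**Figure D4:**
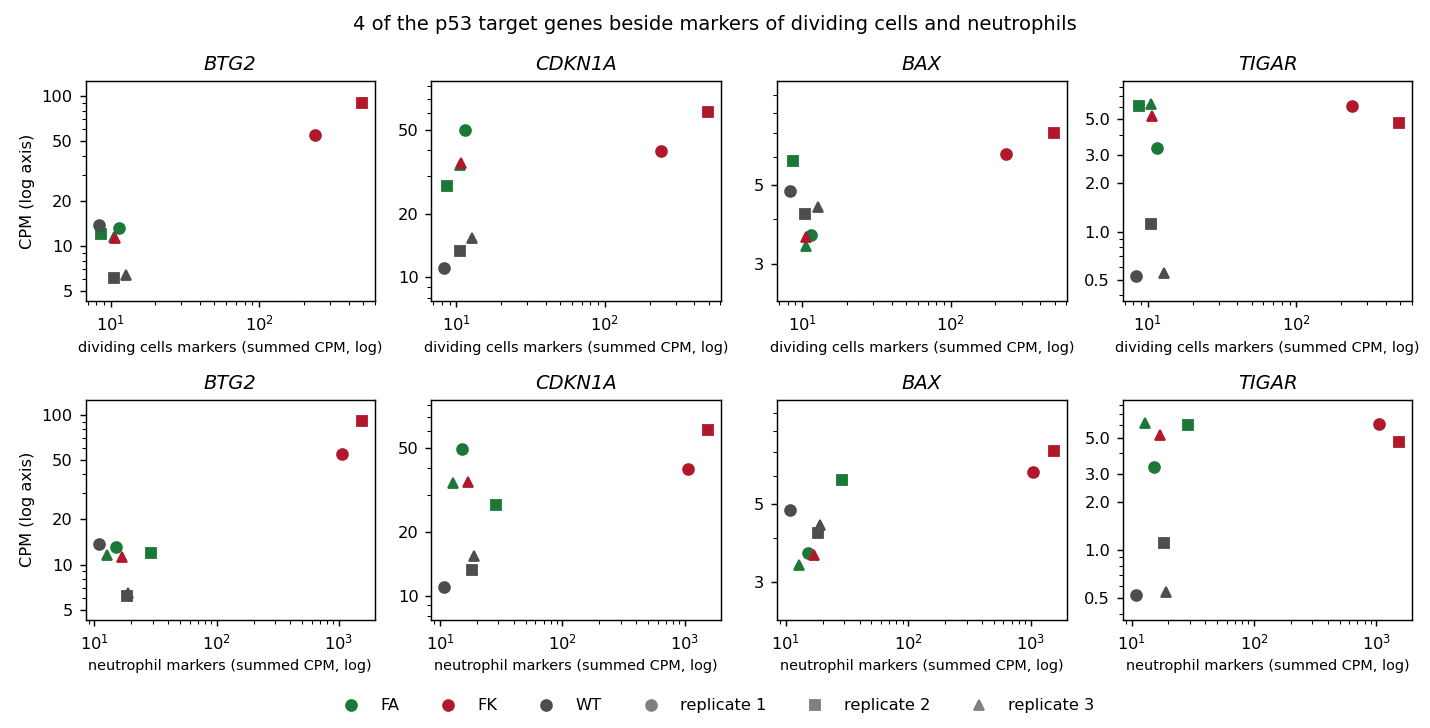
BTG2, CDKN1A, BAX and TIGAR levels (vertical, CPM, log axis) against the summed CPM of dividing-cell markers (upper row) and neutrophil markers (lower row, both log axes) in 9 replicates. FK replicates 1 and 2 lie far to the right in every panel. BTG2 is high only there, whereas TIGAR is at 3.31 CPM or more in the FA sets and FK replicate 3 at low marker sums.

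Further p53 targets were taken from a wider list, and some of them were also higher than WT. Of 60 listed, 54 were in the table and 49 were tested. In FK against WT 5 rose (NINJ1, FAS, PPM1D, THBS1 and AIFM2) and 1 fell (TMEM63B), beside 3.04% and 1.73% of all genes. The median log2 change was 0.36. None was called when any single replicate other than FK replicate 3 was left out, nor without FK replicates 1 and 2 together. In the fit without FK replicate 3, 16 rose and 7 fell, where 34.9% of all genes were called in either direction. NINJ1, a plasma membrane protein that ruptures dying cells, was at 58.0, 77.6 and 56.6 CPM in FA, at 87.5, 79.7 and 56.2 CPM in FK and at 30.4, 32.5 and 35.6 CPM in WT. It rose in FK (log2 change 1.18, SE 0.22, adjusted p = 0.0363) and in FA and FK averaged (1.07, SE 0.20, adjusted p = 0.0436), with 0.97 and adjusted p = 0.195 in FA alone. The call for FA and FK averaged, the single one of this list (beside 0.469% of all genes), was lost without any single replicate other than FK replicate 3 and without FK replicates 1 and 2 together, when FAS alone was called. FAS, the death receptor, averaged 13.4 ± 0.79 CPM in FA, 13.1 ± 1.48 CPM in FK and 7.52 ± 0.97 CPM in WT (SD, n = 3), and rose in FK (0.80, SE 0.18, adjusted p = 0.0442). In FA it had the smallest p of the list, at 0.83 (SE 0.18, adjusted p = 0.172). All FA and FK sets of NINJ1 and FAS exceeded the WT sets. PPM1D, a phosphatase that switches p53 off, rose in FK by 0.94 (SE 0.22, adjusted p = 0.0492) and was at 7.27, 6.87 and 8.38 CPM in FA, 11.6, 11.6 and 7.91 CPM in FK and 6.23, 4.73 and 5.25 CPM in WT.

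THBS1, AIFM2 and TMEM63B lay farthest from WT in FK replicates 1 and 2, the sets with raised blood-cell and dividing-cell markers, and the part of those cells was not tested. THBS1, which encodes the matrix protein thrombospondin, rose in FK (log2 change 4.92, SE 0.95, adjusted p = 0.0368) and was at 6.99, 6.17 and 8.22 CPM in FA, 289, 314 and 13.4 CPM in FK and 7.20, 5.51 and 7.61 CPM in WT. It also had the smallest p of the list between FA and FK (-4.85, SE 0.95, adjusted p = 0.115). AIFM2, a ubiquinone reductase that protects from ferroptosis, rose in FK (2.04, SE 0.48, adjusted p = 0.0489), at 1.81, 2.66 and 2.31 CPM in FA, 8.95, 7.16 and 2.602 CPM in FK and 1.72, 1.87 and 0.940 CPM in WT. TMEM63B, a membrane channel, fell in FK (-1.20, SE 0.23, adjusted p = 0.0382), with 31.8, 43.8 and 37.8 CPM in FA, 18.8, 19.8 and 30.7 CPM in FK and 60.0, 47.8 and 51.5 CPM in WT. In FA against WT and in FA against FK, 0 of 49 were called by edgeR, with 7 and 15 at an unadjusted p under 0.05, beside 10.2% and 21.9% of all genes. In FA against FK, 11 were called higher and 11 lower without FK replicate 3, where 34.5% of all genes were called, and 1, NINJ1, higher in FA against WT. The FA median against WT was 0.14.

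None of 17 tested regulators of p53 was called by edgeR in any comparison (21 listed, 18 in the table). Their median log2 changes were 0.27 in FK and 0.12 in FA against WT, with 5 and 1 genes at an unadjusted p under 0.05, beside 26.9% and 10.2% of all genes. Between FA and FK 1 gene was under it, and with FA and FK averaged 3 were, beside 21.9% and 18.3% of all genes. In FK against WT, 3 regulators were called higher and 1 lower without FK replicate 3, where 34.9% of all genes were called. The smallest p of the list was that of ATM, the kinase that signals double-strand breaks, in FK (0.61, SE 0.18, adjusted p = 0.0806). It was that of TP53BP2, a p53 cofactor, in FA (0.42, SE 0.16, adjusted p = 0.414) and in FA and FK averaged (0.43, adjusted p = 0.167), and that of the acetyltransferase EP300 between FA and FK (-0.53, adjusted p = 0.176).

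Cell cycle genes that fall when p53 acts through p21 and the DREAM repressor complex were mostly higher in FK replicates 1 and 2. The list holds all the dividing-cell markers used above (MKI67, TOP2A, CDK1, CCNB1 and PLK1), so it partly restates their difference. The part of dividing cells was not tested. Of 24 tested, 5 rose in FK against WT and none fell, beside 3.04% and 1.73% of all genes. All FK sets lay above all WT sets in 4 of the 24, beside 13.9% of all genes. The median log2 change was 4.47, with FK replicate medians of 4.48, 5.49 and -0.24. The change was above 0 in 23 of 24, the exception being AURKA (-1.13, adjusted p = 0.111). The 5 were TOP2A, a topoisomerase, the mitotic kinases PLK1 and BUB1B, the cyclin CCNB2 and the transcription factor FOXM1, with log2 changes of 4.28 to 5.43 (adjusted p of 0.044 to 0.0487). Without FK replicate 3, 23 rose and none fell, where 34.9% of all genes were called. None was called with any other single replicate left out or with FK replicates 1 and 2 both left out, when the median was -0.32. TOP2A was at 5.44, 3.18 and 3.51 CPM in FA, at 68.7, 114 and 5.001 CPM in FK and at 1.77, 3.59 and 4.02 CPM in WT. CDKN1A was above WT in FK replicate 3 and all FA sets, where the median over these genes was -0.24, 0.29, -0.20 and 0.11. In FA against WT none was called, with a median of 0.06 and 1 gene at an unadjusted p under 0.05, beside 10.2% of all genes. The smallest p was that of AURKA (-0.93, adjusted p = 0.472). None was called between FA and FK either, where the median was -4.63 and 22 genes had an unadjusted p under 0.05, beside 21.9% of all genes. There the smallest p was that of BUB1 (-5.97, adjusted p = 0.115). Of the 24, 22 were called lower in FA against FK without FK replicate 3, where 34.5% of all genes were called. With FA and FK averaged none was called, and 15 genes were at an unadjusted p under 0.05, beside 18.3% of all genes. AURKA had the smallest p (-1.03, adjusted p = 0.165). In that contrast 21 were called higher without FK replicate 3, where 18% of all genes were called.

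**Figure D5:**
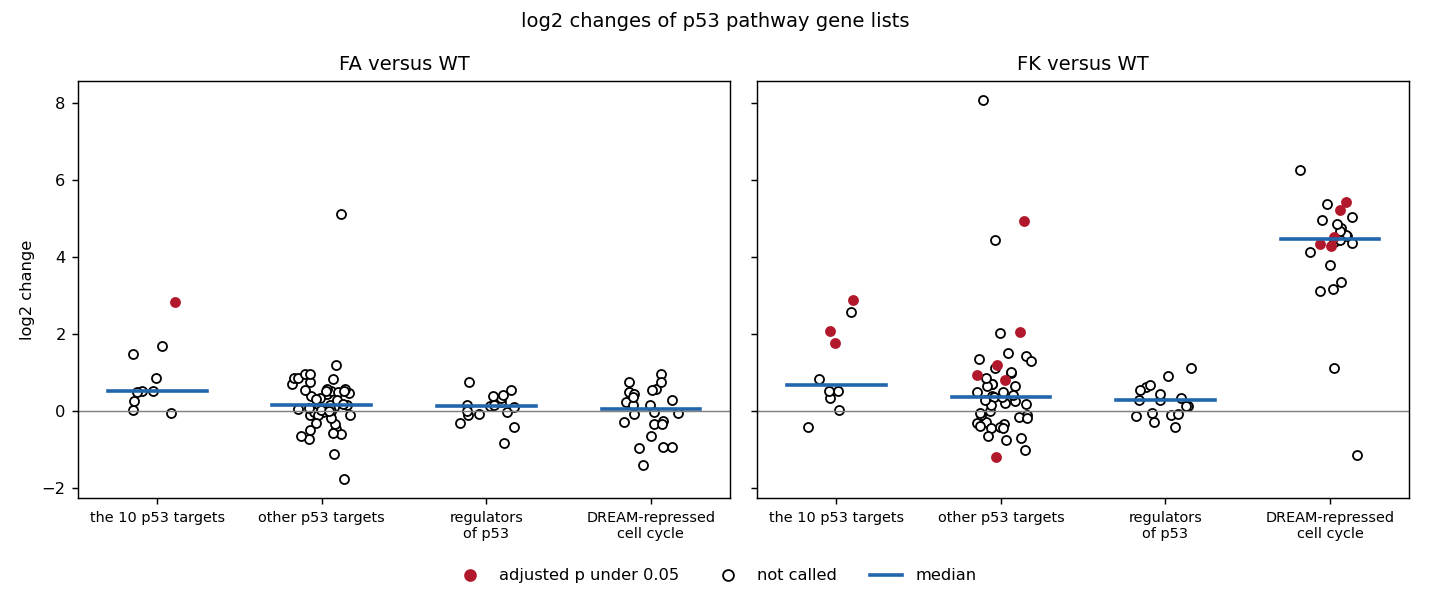
Fitted log2 changes against WT of the tested genes of 4 lists, in FA (left) and FK (right). Each point is a gene, red where the adjusted p was under 0.05, and blue bars are medians. In FK the DREAM-repressed cell cycle genes have a median of 4.47, and the p53 targets a median of 0.68, while in FA these medians are 0.06 and 0.52.

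Outside the lists, the genes whose levels followed the mean of the members most closely over the 9 sets were TCP11L2 (Pearson r = 0.991), RAD1 (0.979), GPC3 (0.979), TUBGCP5 (0.976) and AFP (0.975). These correlations are descriptions, since the sets of a group share their label. The members' mean was itself lowest in the WT sets, so genes picked for likeness to it largely had to differ from WT. TCP11L2 was at 23.6, 13.4 and 19.3 CPM in FA, at 28.0, 26.1 and 18.2 CPM in FK and at 5.67, 5.43 and 6.14 CPM in WT. RAD1, part of the 9-1-1 clamp that signals DNA damage, was at 6.09, 4.75 and 5.81 CPM in FA, at 7.21, 6.42 and 5.19 CPM in FK and at 3.42, 3.85 and 3.58 CPM in WT. Both were higher in all FA and FK sets than in any WT set. AFP, the fetal serum protein alpha-fetoprotein, was at 973, 68.8 and 519 CPM in FA, at 871, 2391 and 228 CPM in FK and at 0.990, 4.09 and 2.48 CPM in WT. GPC3, an oncofetal glypican, was at 53.8, 32.7 and 45.6 CPM in FA, at 159.9, 207 and 67.6 CPM in FK and at 1.98, 3.22 and 2.22 CPM in WT, again with no overlap with WT.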

How the data were processed

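The authors deposited 1 table of estimated counts, whole numbers per gene and library. Salmon 0.14.1 appears in the submitters' processing notes, without its role, and no build or strand setting was stated. Per the labels' protocols, RNA came from TRIzol extracts and was prepared with the TruSeq RNA kit. Counts of the 4 libraries of a set were summed. Within sets, log2(CPM + 1) correlated at r of 0.992 to 0.998, and the median chi-square per degree of freedom was 1.58 to 4.45, so libraries differed by more than sampling noise and none was taken for a repeat of another. The 9 sums entered 1 fit of edgeR 4.0.16 under R 4.3.3, using filterByExpr, TMM normalization, quasi-likelihood F tests and Benjamini-Hochberg adjustment over all tested genes. The procedure was tested on simulated data.

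The members and lists were chosen with earlier results of these data known. The naming rule took all 10 members, FAH, and up to 6 called genes per list and comparison, or else the gene with the smallest p. It also took the 5 genes most like the members, LOC identifiers aside. Alternatives used DESeq2 1.42.0, limma 3.58.1 and the settings named in the closing section. Figures were drawn with matplotlib 3.10.9. A gene that is not reported here was left out of the lists.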

Additional observations from a re-analysis of the deposited data

How the results depend on the processing

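The log2 changes of CDKN1A, TIGAR, EDA2R, ZMAT3, BTG2, PHLDA3 and DDB2 against WT kept their direction under every alternative that gave a value. The counts of members called moved. EDA2R and PHLDA3 were not tested with at least 1 CPM in 3 replicates. From 3 calls in FK against WT, DESeq2 gave 5. A fit of those groups alone, a minimum change of 2-fold, a replicate block for the set number, and leaving out FK replicates 1 and 2 together (chosen after seeing the data) each gave 0, and leaving out single replicates gave 0 to 5. From 1 call in FA against WT, DESeq2 and a fit of all 36 libraries, each set a random effect, gave 3, a fit of those groups alone and leaving out FK replicates 1 and 2 gave 2, a 2-fold minimum, the replicate block and library 1 of each set alone gave 0, and single replicates 0 to 2. Between FA and FK, DESeq2 and the 36 libraries gave 1 in place of 0, and single replicates 0 to 1. For FA and FK averaged, DESeq2 and the 36 libraries gave 4 in place of 2, the 2-fold minimum and the replicate block 1, and single replicates 0 to 5. Of all genes, DESeq2 called 16.5% in FK against WT, 2.09% in FA against WT, 11.1% in FA against FK and 7.23% for the average. The 36 libraries gave 19.2%, 3.44%, 17% and 9.58% in the same order. The cause of the moves in member calls was not tested.

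The main fit did not treat same-numbered sets as pairs. Deviations of same-numbered sets from their group means correlated at -0.15 to 0.15, which with 3 sets a group cannot exclude a pairing. Genes called in all numbered 712 in FK against WT, 25 in FA against WT, 0 in FA against FK and 172 for the average. In the same order they were 2706, 335, 1778 and 1188 by DESeq2, 5396, 247, 5324 and 2780 without FK replicate 3, and 47, 3, 0 and 65 with the replicate block.

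Signs changed only for differences that were not called. In FK against WT these were MDM2 (-0.22 to 0.25 without single replicates) and BAX (-0.34 without FK replicates 1 and 2). In FA against WT they were CCNG1 (-0.16 with the block, -0.10 with 36 libraries, -0.59 to 0.36 without single replicates) and BAX (-0.34 to 0.10). For FA and FK averaged they were CCNG1 (0.0232) and BAX (-0.0079) with library 1 of each set alone, and BAX without single replicates (-0.0126 to 0.25) and without FK replicates 1 and 2 (-0.19). In FA against FK they were TIGAR (-0.18 to 0.21), CCNG1 (-0.16 to 0.78), ZMAT3 (-0.13 to 0.18), DDB2 (-0.39 to 0.0155) and PHLDA3 (-0.37 to 0.39) without single replicates. PHLDA3 was also 0.0185 with DESeq2, 0.0103 with RLE size factors, 0.0183 with no filter on low counts, 0.0082 with FA and FK alone, 0.0268 with the block, 0.10 with 36 libraries and 0.010 with library 1 alone. Weakly counted members limit the precision, above all EDA2R and PHLDA3.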

Other observations

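Several other p53 targets, picked here after their values were seen, were lower in FK replicates 1 and 2 than in FK replicate 3 and the FA sets. XPC, the damage sensor of nucleotide excision repair, was at 101, 73.1 and 90.2 CPM in FA, at 31.1, 29.6 and 85.7 CPM in FK and at 70.3, 55.1 and 52.2 CPM in WT. RRM2B, the p53-inducible subunit of ribonucleotide reductase, was at 18.3, 12.6 and 19.6 CPM in FA, at 6.97, 4.91 and 17.9 CPM in FK and at 12.5, 13.5 and 13.8 CPM in WT. SESN1, a sestrin that restrains mTORC1, was at 51.8, 24.4 and 43.4 CPM in FA, at 9.60, 12.1 and 34.8 CPM in FK and at 37.5, 33.9 and 42.3 CPM in WT. In FK against WT their log2 changes were -0.28, -0.42 and -1.01, none of them called (adjusted p = 0.691, 0.562 and 0.212, edgeR), and FK and WT overlapped in each. Without FK replicate 3 all 3 were among the 7 other p53 targets called lower in FK. BTG2 was at 55.0 and 90.1 CPM in the same 2 sets, above the WT range.

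Reprimo (RPRM), a p53 target of arrest in the G2 phase, also picked after its values were seen, was at 0, 1.26 and 0.0502 CPM in FA, at 7.62, 2.44 and 0.169 CPM in FK and at 0.0319, 0 and 0 CPM in WT. KITLG, the ligand of the receptor KIT, was at 0.0561, 0.243 and 0.151 CPM in FA, at 8.93, 5.596 and 0.304 CPM in FK and at 0.208, 0.290 and 0.178 CPM in WT, and missed the threshold in FK against WT (log2 change 4.44, SE 1.07, adjusted p = 0.0504).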
